A study of Homo sapiens with 31 samples.

Results

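The GFI1 and GFI1B loci were examined in all 13 deposited lists of EVI1 and CTBP2 peaks. A locus was the gene body in GENCODE 44, mapped to GRCh37 (hg19), with 50 kb added on each side, and every peak that touched this window was a member. The GFI1 window is chr1:92888600-93002482 and the GFI1B window is chr9:135769387-135917074. Together they held 239 of the 533140 peaks of the 13 lists, 72 at GFI1 and 167 at GFI1B. Where peaks of different lists shared at least 1 bp they were merged into 1 site, which gave 16 sites at GFI1 and 32 at GFI1B. Sites are named below by the distance of their median summit from the canonical start of the gene, counted along its transcription.

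The study asked how the oncogenic transcription factor EVI1 depends on the corepressor CTBP2, and measured where both proteins sit on chromatin by ChIP-seq. ChIP-seq sequences the DNA recovered with an antibody, so that bound regions stand out over input chromatin as peaks. MUTZ3, a human line of acute myelomonocytic leukemia, carries a rearranged chromosome 3 from which EVI1 is highly expressed, and MOLM1 is a line from chronic myeloid leukemia in blast crisis. The study also mapped and knocked down EVI1 in MOLM1, and treats it as a line with a rearranged chromosome 3. Of the 31 samples of the series, 13 had a peak list and the rest, inputs among them, were not used here.

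Unmodified (WT) MUTZ3 cells gave 1 EVI1 list and 1 CTBP2 list. Untreated MOLM1 cells that carry a dox-inducible shRNA against EVI1 gave 1 CTBP2 list. MUTZ3 cells with the retroviral construct p50MX-3xFLAG-3xNLS-4xPLASS-Zeo, in which the CTBP2-binding motif PLDLS is mutated to PLASS, gave 2 CTBP2 lists. MUTZ3 cells with the inducible construct pCW-4xPLDLS, which carries 4 copies of the intact motif as a competitor for CTBP2, gave 2 lists per target without dox and 2 with dox, all at 72 hours. The untreated cells of this line carry the construct too. By the labels the DSG double crosslink was used for all of the 13 libraries except CTBP2 in unmodified cells, which had a single crosslink. A supplementary sheet of the study gives a single crosslink for CTBP2 in MOLM1 and 4xPLASS cells as well, so comparisons of these with the inducible line may also compare crosslinks. The lists held from 6688 peaks (4xPLASS replicate 1) to 72214 (EVI1 untreated replicate 2), and the CTBP2 lists were shorter with dox (24588 and 23878) than without (62232 and 56526). Read counts are not part of the lists and the depth of each library is unknown, so a difference in the number of peaks and a difference in depth cannot be told apart. Expression values were not used here, so the cell types could not be checked against marker genes. Nothing in the labels says that replicates came from separate cultures, so spreads and p-values below describe these libraries and may be technical.

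GFI1 and GFI1B are paralogous zinc-finger repressors that share an N-terminal SNAG domain, through which they recruit the histone demethylase KDM1A, its partner RCOR1 and histone deacetylases. GFI1 is known for its role in neutrophil and lymphoid development and in hematopoietic stem cells. GFI1B is known for its role in erythroid and megakaryocytic development. Both bind DNA at sequences with an AATC core, and both are known to repress their own promoter and that of the paralogue.

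The stretches on which most of the results turn are shown first. They were read from GRCh37 on the strand of the gene, 5′ to 3′. Each stretch at a summit covers 100 bases on either side of it. Capitals mark every match, on either strand, to 5 short motifs: GACAAGATA, the sequence bound by the first zinc-finger domain of EVI1; AGATAA, bound by factors of the GATA family and sharing 5 letters with it; AGGAAG, an ETS-type sequence; AATCAC, a GFI1-family core; and TGTGGT, a RUNX sequence. The first pair holds the downstream sites that all 13 lists called, the second pair lies at starts of GFI1 and GFI1B, and the last 3 come from GFI1B +3.7, +5.7 and +13.2 kb, where a CTBP2 peak was called in both untreated and neither dox library, at +3.7 kb beside another that was called in all 4.
GFI1B +24.5 kb, EVI1 untreated replicate 1 summit, chr9:135878450-135878650, plus strand: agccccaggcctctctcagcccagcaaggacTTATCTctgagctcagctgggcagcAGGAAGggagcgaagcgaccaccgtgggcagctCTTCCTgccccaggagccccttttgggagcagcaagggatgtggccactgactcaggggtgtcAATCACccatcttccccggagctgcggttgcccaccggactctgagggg
GFI1 +26.9 kb, CTBP2 untreated replicate 2 summit, chr1:92925522-92925722, minus strand: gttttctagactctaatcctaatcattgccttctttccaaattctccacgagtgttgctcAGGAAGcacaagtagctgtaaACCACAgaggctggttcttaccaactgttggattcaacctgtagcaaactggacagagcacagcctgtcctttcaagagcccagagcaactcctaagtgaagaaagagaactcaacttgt
GFI1, the 200 bases upstream of its inner start at 92949511, chr1:92949512-92949711, minus strand: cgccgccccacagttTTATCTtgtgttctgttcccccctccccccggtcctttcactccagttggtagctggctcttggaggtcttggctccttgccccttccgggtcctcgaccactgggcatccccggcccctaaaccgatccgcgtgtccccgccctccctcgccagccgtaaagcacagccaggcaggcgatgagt
GFI1B, first intron after the canonical first exon, chr9:135854229-135854396, plus strand: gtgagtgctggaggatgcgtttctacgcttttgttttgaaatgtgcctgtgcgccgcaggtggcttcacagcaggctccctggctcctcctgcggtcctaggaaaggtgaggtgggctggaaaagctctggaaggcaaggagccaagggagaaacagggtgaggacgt
GFI1B +3.7 kb, EVI1 untreated replicate 1 summit, intronic, chr9:135858151-135858351, plus strand: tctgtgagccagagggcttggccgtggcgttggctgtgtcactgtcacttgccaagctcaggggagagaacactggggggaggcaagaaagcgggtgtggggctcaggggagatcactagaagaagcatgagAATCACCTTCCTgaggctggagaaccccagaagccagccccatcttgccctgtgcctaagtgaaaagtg
GFI1B +5.7 kb, EVI1 untreated replicate 1 summit, intronic, chr9:135859654-135859854, plus strand: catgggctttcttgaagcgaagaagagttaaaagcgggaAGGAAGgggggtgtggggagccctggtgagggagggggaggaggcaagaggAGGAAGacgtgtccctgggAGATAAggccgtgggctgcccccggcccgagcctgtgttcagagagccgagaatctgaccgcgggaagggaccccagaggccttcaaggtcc
GFI1B +13.2 kb, EVI1 untreated replicate 1 summit, past the 3′ end of the gene, chr9:135867218-135867418, plus strand: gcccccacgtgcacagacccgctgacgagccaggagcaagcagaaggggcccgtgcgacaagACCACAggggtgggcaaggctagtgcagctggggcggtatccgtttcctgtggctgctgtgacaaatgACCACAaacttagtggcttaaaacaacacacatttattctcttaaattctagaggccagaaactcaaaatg

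At GFI1, EVI1 and CTBP2 peaks gathered in 2 places that all 13 lists called, the 5′ part of the gene and an intergenic site 26.9 kb downstream of its canonical start. GFI1 (ENSG00000162676) lies on the minus strand at chr1:92938600-92952482. The 5′ site spans chr1:92948098-92952984 and covers the canonical start at 92952482, several other annotated starts and both UTR and coding bases. Summits within 200 bp of the canonical start were found in 4 lists, with a fold enrichment of 4.08 to 6.42. Summits at the starts 828 and 986 bp further in were found in 11 lists (3 of the 5 EVI1 lists and all 8 CTBP2 lists), with a fold enrichment of 3.54 to 13.1. Summits at the inner start, 2971 bp downstream of the canonical start, were found in 10 lists (4 EVI1, 6 CTBP2), with a fold enrichment of 4.19 to 20.8. Fold enrichment is the authors' ratio of ChIP signal at a summit to the local background. The canonical start was thus the least often marked of the 3, although a list that drew the whole site as 1 peak has 1 summit there, and the highest value of the locus, 20.8 in EVI1 untreated replicate 2, lay at the inner one. The extent of a peak differed between libraries. In CTBP2 untreated replicate 1 the whole 5′ site was 1 peak of 4475 bp, while 4xPLASS replicate 2 divided it into 5 peaks of at most 762 bp.

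The GFI1 +26.9 kb site (chr1:92925283-92926449) reached a fold enrichment of 4.62 to 7.96 in the 5 EVI1 lists and 4.05 to 11.96 in the 8 CTBP2 lists. Its summits were spread over 691 bp. The other 14 GFI1 sites were weak and irregular: 9 were called in 1 list and none in more than 4, and their strongest peaks ranged from 3.74 to 7.64. Upstream of GFI1 the only gene in the window is the 3′ part of EVI5, whose intron held a single peak, in CTBP2 dox replicate 2.

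GFI1B (ENSG00000165702) lies on the plus strand at chr9:135819387-135867074, with its canonical start at 135854081 and a set of distal starts from 135819387 on, beside the start of TSC1. Of its 32 sites, 12 were called in at least 7 lists, against 2 of 16 at GFI1. This count depends on the merging, since the GFI1 5′ site is 1 merged site with summits at several starts. Among the 12 GFI1B sites, those at −34.0 and +52.2 kb lie at the starts of TSC1 and GTF3C5. The most prominent was the intergenic site at +24.5 kb (chr9:135877610-135880896), which was the strongest peak of the window in every one of the 13 lists. Its fold enrichment was 51.4 in EVI1 of unmodified cells, 83.7 and 133.8 in EVI1 untreated, and 82.3 and 73.8 in EVI1 dox. For CTBP2 it was 27.6 in unmodified cells, 33.1 in MOLM1, 14.9 and 38.0 in 4xPLASS, 66.9 and 51.0 in untreated and 22.6 and 21.2 in dox cells. By fold enrichment it ranked between 2 and 8 in the EVI1 lists and between 15 and 344 in the CTBP2 lists. The main summits of the 13 libraries fell within 84 bp of each other. Some lists resolved weaker peaks inside the same site, such as one with its summit at 135880082 and a fold enrichment of 8.004 in CTBP2 of unmodified cells.

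Closer to the gene, a pair of sites sat at the canonical promoter of GFI1B. The +0.1 kb site (chr9:135853930-135855004) was called in all 13 lists, with summits over 137 bp at the end of the first exon, which is UTR, and the beginning of the first intron. Its fold enrichment was 7.17 to 17.9 for EVI1 and 5.25 to 21.5 for CTBP2. The −0.8 kb site (chr9:135852707-135853635), which is intronic for transcripts from the distal starts, was called in 12 lists, all but 4xPLASS replicate 1, at 3.07 to 20.4 for EVI1 and 4.05 to 21.1 for CTBP2. A further promoter site lay near the distal starts, at −34.0 kb (chr9:135819414-135820803), and was called in 12 lists with EVI1 values from 8.41 to 43.6 and CTBP2 values from 4.11 to 13.8. Its summits, between 135820023 and 135820139, lay nearer to the canonical start of TSC1 at 135820003 than to any annotated GFI1B start, and no GFI1B start had a summit within 200 bp there, so TSC1 and distal GFI1B cannot be told apart as its owner. TSC1 encodes a subunit of the complex that restrains mTORC1.

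Inside the gene and beyond its 3′ end, the remaining named GFI1B sites were weaker than the +24.5 kb site. The intronic sites at +3.7 and +5.7 kb were called in 10 and 9 lists, with highest values of 10.7 and 26.7. The sites at +13.2, +16.0, +30.3, +43.8 and +44.6 kb were called in 7 to 10 lists each, with highest values between 8.09 and 14.2. The +52.2 kb site lies on the promoter of GTF3C5, a subunit of the general RNA polymerase III factor TFIIIC, and was called in 8 lists with values up to 9.05. The other 20 GFI1B sites were called in at most 4 lists, 13 of them in 1, with strongest peaks of 2.53 to 7.78. Over the 13 lists, 43.1% of the GFI1 peaks and 24.6% of the GFI1B peaks had their summit within 1 kb of an annotated start of the gene. Downstream of the gene were 40.3% and 53.9%, elsewhere in the gene 6.94% and 19.2%, and upstream 9.72% and 2.40%. The GFI1B share near a start includes the −34.0 kb site, which lies nearer to the TSC1 start. These shares count peaks and not sites, and the GFI1 5′ site was divided into 1 to 5 peaks per list, so they draw no contrast between the loci.

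**Figure D1:**
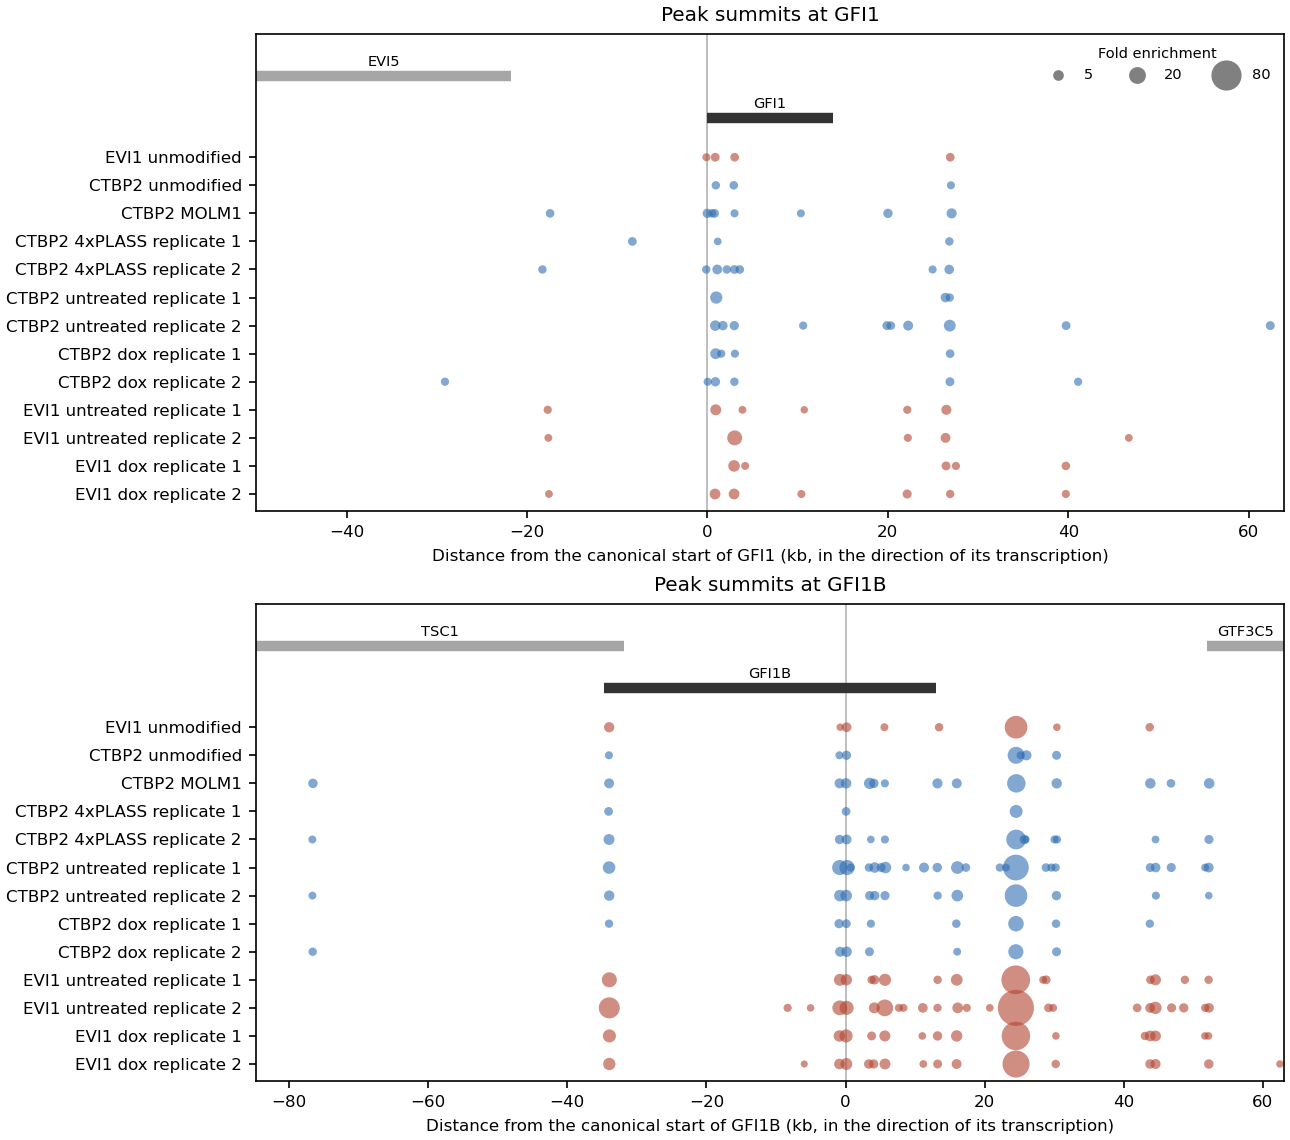
Peak summits of the 13 lists (rows) at GFI1 (top) and GFI1B (bottom), by distance in kb from the canonical start along transcription; dot area grows with fold enrichment, EVI1 is red, CTBP2 is blue, and bars show the genes. GFI1 has columns of dots at its 5′ end and at +26.9 kb, while GFI1B has many, the largest dots being at +24.5 kb in every library.

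The GFI1B locus was richer in peaks than the GFI1 locus, and its strongest peak was higher. Per 100 kb of window, the lists held a median of 8.80 peaks at GFI1B (2.03 to 16.3) and 4.39 at GFI1 (2.63 to 8.78). Over the 8 groups of libraries the mean was 8.29 at GFI1B and 4.77 at GFI1, a difference of 3.52 ± 2.92 (SD, n = 8 groups) that was positive in 8 of 8 (exact two-sided sign-flip permutation test, p = 0.0078, the smallest that 8 groups can give). With flanks of 25 kb the difference was 1.96 and did not pass (p = 0.15, same exact permutation test). In single libraries the order was turned in 4xPLASS replicate 1 (2.63 at GFI1, 2.03 at GFI1B) and in CTBP2 dox replicate 2 (5.27 and 4.74). By group the difference was smallest in 4xPLASS (0.59) and CTBP2 dox (0.69). The GFI1B window also holds the canonical starts of TSC1 and GTF3C5, and peaks there count in its density. The GFI1 window holds no other canonical start. The density was not computed without these peaks, so the part of the neighbouring genes in the difference was not tested. Most of the 20163 protein-coding gene windows of the same design were sparser than either locus: in the median library 6.88% of them were denser than GFI1B and 19.2% were denser than GFI1. The exception was CTBP2 untreated replicate 1, in which 58.5% were denser than GFI1.

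The strongest peak differed by 2.39 ± 0.58 on the log2 scale of fold enrichment (SD, n = 8 groups), higher at GFI1B in 8 of 8 groups (exact two-sided sign-flip permutation test, p = 0.0078). Since the GFI1B element was known before these loci were chosen, this test describes a known element and is no independent evidence. Without the +24.5 kb site, a comparison added after the values were seen, the difference fell to 0.41 ± 0.33 (n = 8 groups), GFI1B being higher in 7 of 8 groups and lower in CTBP2 dox (exact permutation p = 0.016). In 6 of the 13 libraries the remaining maximum was the −34.0 kb site at the TSC1 start, both EVI1 untreated libraries among them. Without that site too, the difference was 0.26 ± 0.19 (n = 8 groups), GFI1B being higher in 6 of 8 groups (exact permutation p = 0.031). By single library GFI1 was then higher in both 4xPLASS libraries, CTBP2 untreated replicate 2 and CTBP2 dox replicate 1. No site was taken out at GFI1, and the windows differ in length, so these comparisons treat the loci unequally. The median share of gene windows whose strongest peak exceeded that of the locus was 0.154% for GFI1B, at most 3.17% in any library, and 48.2% for GFI1, where it ran from 12.01% in CTBP2 dox replicate 1 to 73.2% in MOLM1. The 8 groups share cell lines and antibodies, so they are not independent, and a broad peak that is divided in 1 list and whole in another changes the density. Measured as kb covered by peaks per 100 kb, the difference was 1.90 and also passed (exact permutation p = 0.0078).

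**Figure D2:**
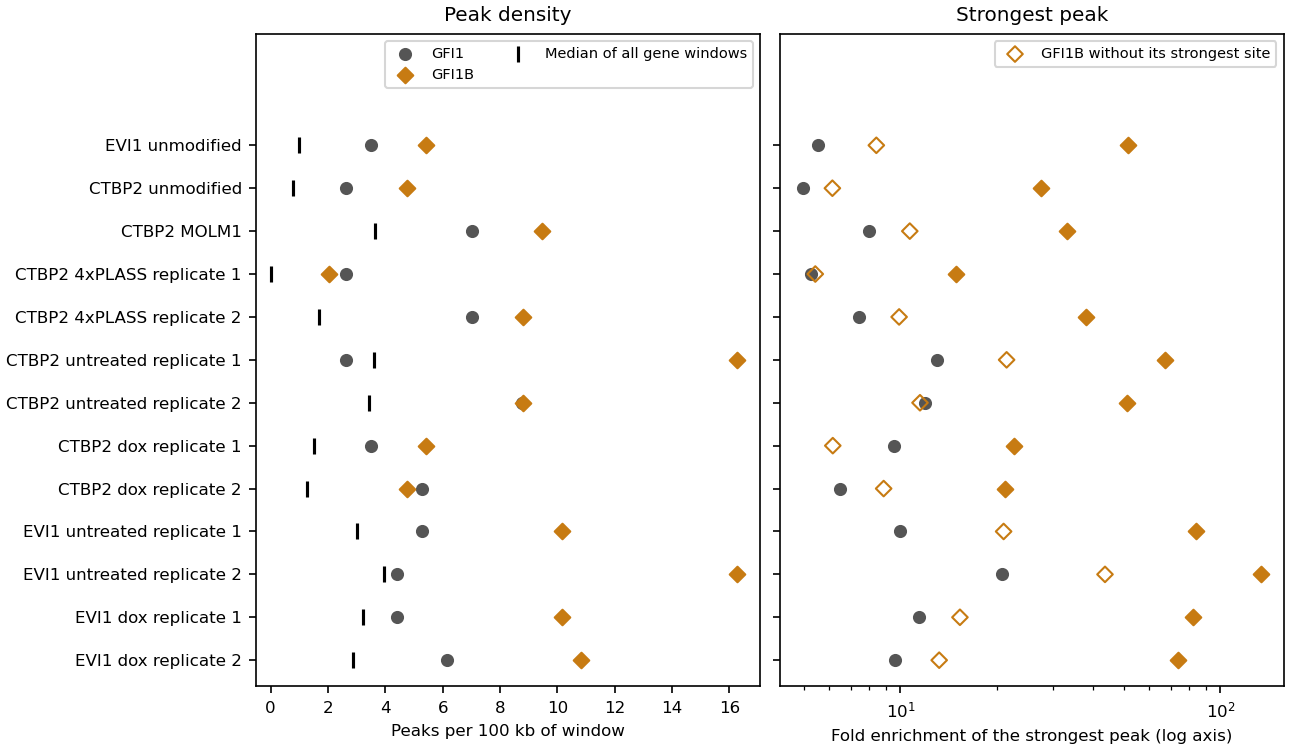
Peaks per 100 kb of window (left) and fold enrichment of the strongest peak on a log axis (right) for GFI1 and GFI1B in each of the 13 libraries; ticks are the median of all protein-coding gene windows and open diamonds are GFI1B without its +24.5 kb site. GFI1B lies to the right of GFI1 on the right panel in every library, and the open diamonds lie closer to the GFI1 points than the filled ones do.

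With dox, which induces the 4xPLDLS competitor, the GFI1B window held fewer CTBP2 peaks, as most gene windows did, and the heights of 5 of 8 sites called throughout were lower. The GFI1B window held 24 and 13 CTBP2 peaks without dox and 8 and 7 with it, so the groups did not overlap (18.5 ± 7.78 and 7.50 ± 0.71, SD, n = 2). The same held for 72.3% of the 18377 protein-coding gene windows with a CTBP2 peak in any of the 4 libraries. The dox peaks were 0.405 of the untreated ones at GFI1B and 0.408 over the whole lists, so the GFI1B count was that of the background. The GFI1 window held 3 and 10 without and 4 and 6 with dox, which overlap (6.50 ± 4.95 and 5.00 ± 1.41). The exact two-sided permutation p was 0.33 at GFI1B and 1 at GFI1, and 2 libraries against 2 cannot give less than 0.33. In lists shortened to equal size the GFI1B difference shrank from −11.0 to −1.50 peaks and the GFI1 difference turned from −1.50 to 2.00. The GFI1 difference was also 2.00 without CTBP2 untreated replicate 2, and the GFI1B difference was −5.50 without CTBP2 untreated replicate 1 and −16.5 without replicate 2.

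By site, 12 GFI1B sites were called by CTBP2 in both untreated libraries, and 6 of them were called in both dox libraries, 1 in one of them and 5 in neither. Over all 37227 such CTBP2 sites of the genome, 38.4% had a peak in both dox libraries and 41.0% in neither. The GFI1B counts were thus near the background. At GFI1 there were only 2 such sites, the 5′ site and the +26.9 kb site, and both were called in both dox libraries. Since both are also the sites that all 13 lists called, no contrast between the loci is drawn from this. For GFI1 sites of either untreated library the share with a peak was 25% on average over the dox libraries. On average over the dox libraries, 54.2% ± 5.89 (SD, n = 2) of the GFI1B sites were kept, and 29.2% when CTBP2 untreated replicate 2 was left out. At GFI1 the share was 35.0% when CTBP2 untreated replicate 1 was left out. In lists of equal size 5 GFI1B sites remained in the untreated cells and 90.0% of them were kept.

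The GFI1B sites without a CTBP2 peak in either dox library were, among those named, the ones at +5.7, +13.2, +44.6 and +52.2 kb. Their CTBP2 fold enrichment in untreated cells was 11.1 and 6.10 at +5.7 kb, 6.63 and 4.49 at +13.2 kb, 6.94 and 4.13 at +44.6 kb, and 7.21 and 3.23 at +52.2 kb. The values at the last 3 sites were at most 7.21, and at +5.7 kb they were in the range of the sites called with dox. The fifth was 1 of a pair of CTBP2 peaks within the +3.7 kb site. The peak with its summit at 135858267 in untreated replicate 1 (fold enrichment 8.86) and at 135858277 in replicate 2 (6.58) had no counterpart with dox. Its neighbour, with summits at 135857447 and 135857552 (4.82 and 6.15), still had peaks at 135857726 and 135857523 (4.29 and 5.68), which overlap. At the −34.0 kb site CTBP2 was at 13.8 and 8.59 in untreated cells, at 4.56 in dox replicate 1 and not called in dox replicate 2.

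Where CTBP2 was called in all 4 libraries, its fold enrichment was mostly lower with dox. With sites merged from the CTBP2 lists alone, both dox values lay below both untreated ones at 5 of 8 sites, 4 of 6 at GFI1B and 1 of 2 at GFI1, and the other 3 overlapped. Over all 14297 CTBP2 sites of this kind called in all 4 libraries 72.5% lay below and 1.96% above, so the share at the loci was near the background. With sites merged over all 13 lists the +3.7 kb site, whose value then compares different summits, was also lower, which made 6 of 8. At GFI1B +24.5 kb the value went from 66.9 and 51.0 to 22.6 and 21.2, a log2 difference of −1.42. At GFI1B +16.0 kb it went from 14.2 and 11.5 to 4.90 and 3.81, a log2 difference of −1.56. At the GFI1B promoter it went from 21.5 and 11.5 to 5.33 and 8.86 at +0.1 kb (log2 difference −1.19) and from 21.1 and 11.2 to 6.14 and 7.80 at −0.8 kb (−1.15). The GFI1 5′ site (+0.9 kb by its median summit) had 13.1 and 9.01 without and 9.53 and 6.47 with dox, which overlap, a log2 difference of −0.47. The GFI1 +26.9 kb site had 6.75 and 11.96 without and 5.14 and 5.63 with dox, a log2 difference of −0.74. The GFI1B +30.3 kb site had overlapping values, 4.63 and 6.51 without and 4.90 and 5.75 with dox (log2 difference −0.05). For each of these sites the exact two-sided permutation p was 0.33 or more, and 0.33 is the smallest this design allows.

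The median log2 difference over all 14297 sites was −0.86, so the named sites were also read against it. After each list was centred on its median over these sites, 2 of 8 named sites, GFI1B +16.0 and +24.5 kb, had both dox values below both untreated values, against 25.9% of all sites. A lower log2 difference than that of GFI1B +24.5 kb was found at 16.5% of all sites, and than that of +16.0 kb at 11.2%. For the GFI1 5′ and +26.9 kb sites these shares were 73.6% and 57.6%. The direction of the GFI1 5′, GFI1 +26.9 kb, GFI1B +3.7 kb and GFI1B +30.3 kb sites turned under this centring. At all of these except GFI1 +26.9 kb, both centred dox values lay above both untreated values. At GFI1B +3.7 kb they compare different summits. The share of all sites with both centred dox values above was not computed. The dox lists were also shorter, and the part of list length in these values was not tested.

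**Figure D3:**
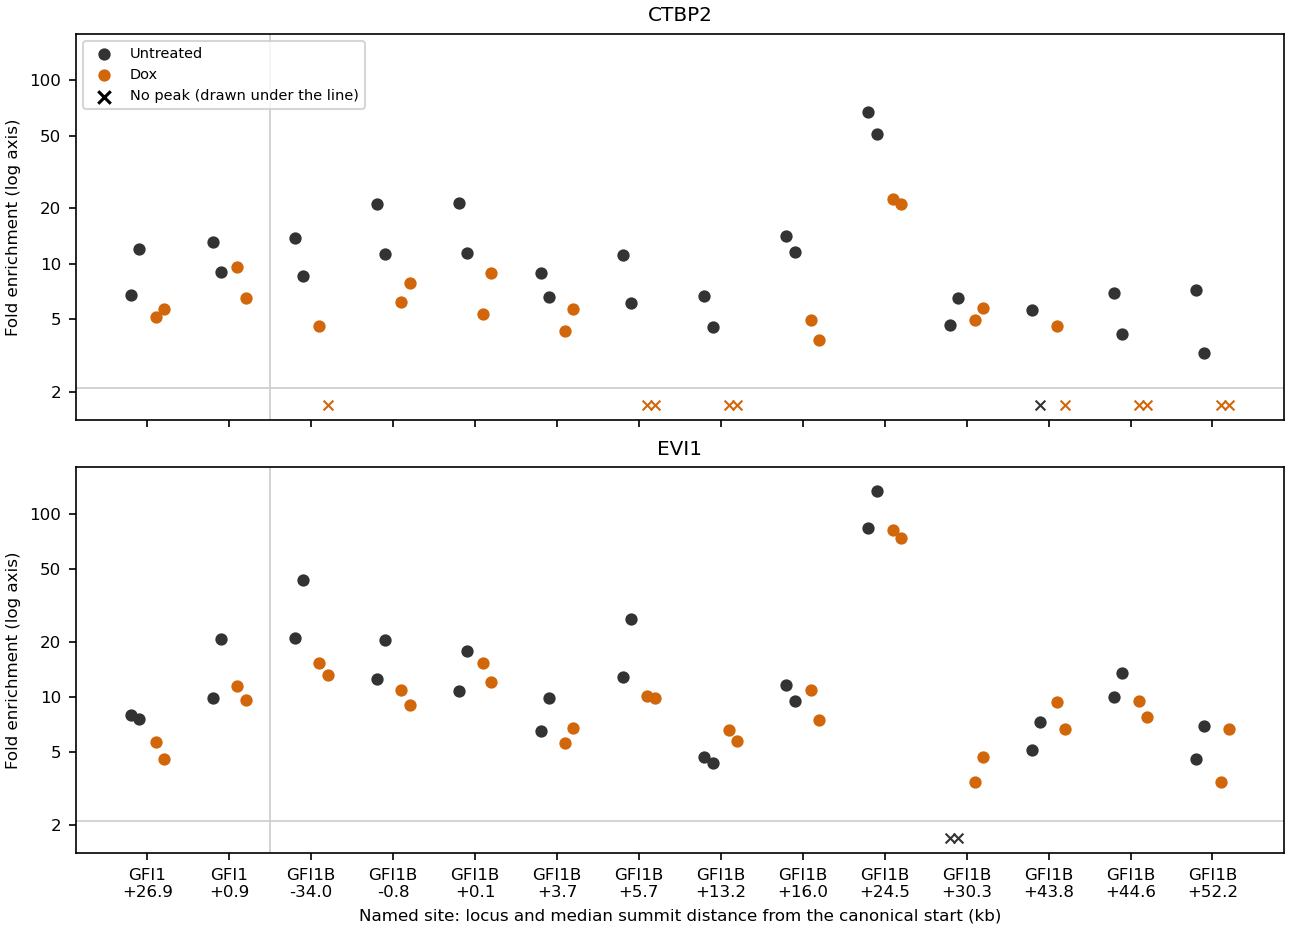
Fold enrichment (log axis) of CTBP2 (top) and EVI1 (bottom) at the 14 named sites in the 2 untreated (black) and 2 dox (orange) libraries; a cross marks a library with no peak. CTBP2 dox points lie below the untreated ones at 5 of the 6 GFI1B sites with a peak in all 4 libraries (+3.7 kb with different summits), from 66.9 and 51.0 to 22.6 and 21.2 at +24.5 kb, where EVI1 runs from 83.7 and 133.8 to 82.3 and 73.8.

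For EVI1 most GFI1B sites were called with and without dox. The GFI1B window held 15 and 24 EVI1 peaks without dox and 15 and 16 with it, and the GFI1 window held 6 and 5 without and 5 and 7 with it (exact two-sided permutation p = 1 for each locus). Of 13 GFI1B sites called in both untreated libraries, 11 were called in both dox libraries and 2, at chr9:135882365-135883444 and chr9:135902568-135903043, in neither. Over the 40449 EVI1 sites of the genome the shares were 78.1% and 9.01%. With EVI1 untreated replicate 1 left out, 52.1% of the GFI1B sites were kept on average instead of 84.6%, and the difference in GFI1B peaks, −4.00, became −8.50, while it was 0.50 without replicate 2. Of 4 GFI1 sites, 2 were called in both dox libraries and 2 in one of them. The 4 named GFI1B sites without CTBP2 in the dox libraries had an EVI1 peak in both, which their choice by the number of lists favours. At +5.7 kb EVI1 was at 12.9 and 26.7 without and 10.1 and 9.85 with dox, and at +44.6 kb at 10.1 and 13.5 without and 9.57 and 7.82 with it. At +52.2 kb the values were 4.59 and 6.93 without and 3.43 and 6.68 with dox, which overlap. At +13.2 kb EVI1 was higher with dox, at 6.62 and 5.72 against 4.73 and 4.36.

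Of the 13 named sites with EVI1 in all 4 libraries, 6 had both dox values below both untreated values, 6 overlapped and 1 lay above. Without EVI1 untreated replicate 1, 10 lay below, and by −log10 p in place of fold enrichment 2 did. Over all 31593 such EVI1 sites, 35.3% lay below and 13.4% above. At GFI1B +24.5 kb EVI1 went from 83.7 and 133.8 to 82.3 and 73.8, a log2 difference of −0.44, in which the highest dox value was just under the lowest untreated one. The −34.0 kb site showed the largest EVI1 difference of the named sites, from 21.0 and 43.6 to 15.3 and 13.2 (log2 difference −1.09). At the GFI1B +0.1 kb site EVI1 was at 10.7 and 17.9 without and 15.3 and 12.1 with dox, a log2 difference of −0.03. The GFI1 5′ site had 9.93 and 20.8 without and 11.4 and 9.59 with dox, and its log2 difference of −0.46 became 0.076 without EVI1 untreated replicate 2. Every p was again 0.33 or more by the exact permutation test, and whether EVI1 and CTBP2 differed in their response at a site was not tested.

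**Figure D4:**
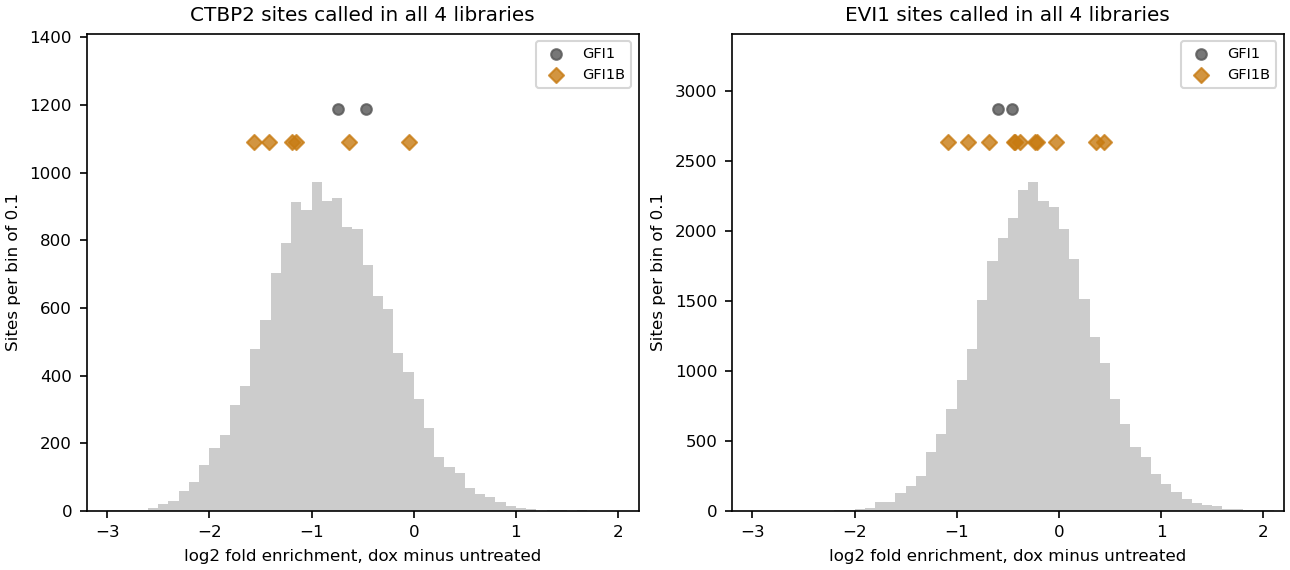
Log2 difference in fold enrichment, dox minus untreated, at the named GFI1 (circles) and GFI1B (diamonds) sites above the distribution over all sites called in all 4 libraries (grey, number of sites per bin of 0.1), for CTBP2 (left) and EVI1 (right). The named CTBP2 sites run from −1.56 to −0.05, around the median of all sites at −0.86, and the EVI1 sites from −1.09 to 0.44, around −0.23.

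In untreated cells of the inducible line most EVI1 sites of GFI1B coincided with CTBP2. At GFI1B 10 of 13 EVI1 sites overlapped a CTBP2 site (76.9%, 95% Wilson interval 49.7 to 91.8, counting error only), and 11 of 12 CTBP2 sites overlapped an EVI1 site. At GFI1 these counts were 2 of 4 (50.0%, 15.0 to 85.0) and 2 of 2. Over the genome 75.9% of EVI1 sites overlapped a CTBP2 site and 82.5% of CTBP2 sites an EVI1 site, so neither locus stood out. In lists of equal size the share of EVI1 sites with CTBP2 at GFI1B was 38.5%. The summits of both proteins in untreated replicates of the same number lay 19 and 15 bp apart at GFI1B +24.5 kb, 39 and 8 bp at −34.0 kb and 41 and 13 bp at −0.8 kb. The widest distances at named GFI1B sites were 98 and 68 bp at +0.1 kb and 94 and 50 bp at +16.0 kb. At GFI1 the summits lay 108 and 467 bp apart at +26.9 kb and 53 and 2148 bp apart at the 5′ site, where the strongest summit moved between starts. The distance over all sites of the genome was not computed. At the GFI1B +30.3 kb site CTBP2 was called in 7 lists, including all 4 of the inducible line, but EVI1 in neither untreated library, with 3.43 and 4.69 in the dox libraries and 3.27 in unmodified cells.

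At both loci most CTBP2 peaks of unmodified MUTZ3 cells and most CTBP2 sites of untreated inducible cells overlapped a MOLM1 peak. All 3 GFI1 and all 7 GFI1B peaks of CTBP2 in unmodified MUTZ3 cells overlapped a MOLM1 peak, against 70.2% of that list as a whole. Of the CTBP2 sites of untreated inducible cells, 2 of 2 at GFI1 and 11 of 12 at GFI1B had a MOLM1 peak, against 61.9% of all. In the other direction, 5 of 8 MOLM1 peaks at GFI1 (62.5%, Wilson interval 30.6 to 86.3) and 9 of 14 at GFI1B (64.3%, 38.8 to 83.7) overlapped CTBP2 of unmodified or 4xPLASS MUTZ3 cells, against 35.5% of the MOLM1 list. Where peaks are counted, a site divided into several peaks enters several times. The GFI1 5′ site alone holds 4 of the 8 MOLM1 and 2 of the 3 unmodified peaks. The Wilson intervals treat such peaks as separate and give counting error only. The MOLM1 fold enrichment was higher than in any MUTZ3 CTBP2 library at GFI1B +3.7 kb (10.7), +13.2 kb (8.09), +30.3 kb (8.52), +43.8 kb (8.76) and +52.2 kb (9.05). At the other named sites of both loci a MUTZ3 CTBP2 library was higher. The MOLM1 list also had the highest median fold enrichment of the CTBP2 lists, 6.66 against 6.03 in untreated replicate 1, the next. The share of all sites that were highest in MOLM1 was not computed, so no trait of these sites is drawn from this. In 4xPLASS cells, replicate 1 had 3 peaks at each locus and replicate 2 had 8 at GFI1 and 13 at GFI1B, and only the GFI1 5′, GFI1 +26.9 kb, GFI1B −34.0 kb, +0.1 kb and +24.5 kb sites were called in both. With 1 MOLM1 library there was no replicate error and no test between lines.

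The motif matches differed from site to site. The GFI1B +24.5 kb stretch shown above holds AGATAA from base 32, AGGAAG from bases 57 and 90, and AATCAC from base 153, the last 52 bases after the summit. The GFI1 +26.9 kb stretch holds AGGAAG from base 61 and TGTGGT from base 82, and no AGATAA or AATCAC. It was taken at the CTBP2 untreated replicate 2 summit, unlike the GFI1B summit stretches. Within 100 bp of the untreated replicate 1 summits of EVI1 and CTBP2 this site had none of the 5 motifs. The GFI1B +5.7 kb stretch holds AGGAAG from bases 40 and 91 and AGATAA from base 110, and the +3.7 kb stretch has AATCAC from base 133 joined to AGGAAG on the other strand. The +13.2 kb stretch holds TGTGGT from bases 63 and 131. Within 100 bp of the EVI1 summits of untreated replicate 1, AGGAAG was found at 6 of 11 named GFI1B sites and 0 of 2 GFI1 sites, against 43.0% of all 50453 peaks of that list on chromosomes 1 to 22, X and Y. AGATAA was found at 2 of 11 and 0 of 2 (8.93% of all peaks), AATCAC at 2 of 11 and 0 of 2 (6.10%), TGTGGT at 1 of 11 and 0 of 2 (19.3%), and GACAAGATA at none (0.315%). At CTBP2 summits of untreated replicate 1 the counts at 12 GFI1B sites were 6 for AGGAAG (38.1% of all peaks), 2 for AGATAA (5.01%), 3 for AATCAC (5.69%), 2 for TGTGGT (17.4%) and 0 for GACAAGATA (0.0897%), and both GFI1 sites had none of the 5. A match is a string of letters and no measured binding site, and 14 sites are too few to set these counts apart from the shares in the lists.

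Related genes were read at their promoters, within 1 kb of the canonical start. By this measure GFI1B had a peak in 13 lists and GFI1 in 12, all but 4xPLASS replicate 1. Of 9 genes for other zinc-finger proteins with a SNAG domain, 4 (SNAI1, SNAI3, INSM2 and SCRT2) had an EVI1 peak in both untreated libraries, the same 4 in both dox libraries, and the same 4 a CTBP2 peak in both untreated libraries. None of the 9 had a CTBP2 peak in both dox libraries. Over all 20163 protein-coding genes the shares were 58.1% for EVI1 untreated, 56.3% for EVI1 dox, 54.8% for CTBP2 untreated and 25.2% for CTBP2 dox. SCRT2, a neuronal Snail-family repressor, went from a CTBP2 fold enrichment of 8.92 and 7.29 without dox to no peak with it, while EVI1 was at 11.4 and 19.9 without and 7.94 and 7.61 with dox. Of 12 genes for corepressor partners of GFI1 proteins, all 12 had an EVI1 peak in both untreated and in both dox libraries. For CTBP2 the counts were 11 in both untreated and 6 in both dox libraries (RCOR1, RCOR3, HDAC2, HDAC3, PHF21A and GSE1). The exception in untreated cells was EHMT2, a histone H3K9 methyltransferase, with CTBP2 at 4.28 in replicate 1 and no peak in replicate 2. PHF21A, the CoREST-complex subunit that reads unmodified H3K4, had peaks in all 13 lists, with CTBP2 at 22.9 and 12.5 without and 4.01 and 4.07 with dox. In the windows themselves, the TSC1 promoter had a peak in 12 lists and that of GTF3C5 in 8, and the values of both are those given above for the GFI1B −34.0 and +52.2 kb sites.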

How the data were processed

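ChIP-seq reads were aligned by the authors to hg19 with bowtie, and MACS2 called peaks in each library over its input with the default settings. The submitters' processing notes name Bowtie 1.1.1, MACS2 2.1.2, bcl2fastq 1.8.4 and deepTools 3.5.1. The deposited lists give, for each peak, a fold enrichment, which is a ratio to the local background, and a deposited −log10 p and −log10 q at the summit. The deposited score column tracked the −log10 q times 10 and entered no result. Libraries were prepared with 2 kits and sequenced single-end or paired-end, which can change peak width, and which library had which is not given in the sources used here.

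The 13 lists were grouped by the sample titles into 8 groups. Peaks were merged and counted as overlapping from 1 bp, and distances run from the Ensembl canonical start of GENCODE 44 (given for 19881 of 20163 genes, the gene's 5′ end being used for the rest). Named sites were those called in at least 7 lists, those over the canonical starts, the strongest of each locus per target, and those that CTBP2 called in both untreated and neither dox library with a fold enrichment of at least 5 in 1. Groups were compared by exact permutation or sign-flip tests, two-sided, on numbers of peaks and log2 fold enrichment, with no adjustment since no test could be made per feature. The members and gene lists were chosen with earlier results of these data known. Alternatives were stricter −log10 q or fold enrichment (at least 5), flanks of 25 or 100 kb, other overlap rules (50% of the shorter interval, or summits within 200 bp), lists of equal size by −log10 p, −log10 p in place of fold enrichment, centring, either untreated library, libraries or groups left out, and the replicate block. Functions were tested on simulated lists. Scripts ran in Python 3.11.15, using SciPy 1.17.1, matplotlib 3.10.9, pandas 2.3.3 and numpy 2.4.6. Intervals are Wilson intervals at the 95% level.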

Additional observations from a re-analysis of the deposited data

Results flagged for a closer look

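At the GFI1B +13.2 kb site, just past the 3′ end of the gene, CTBP2 was not called with dox while the EVI1 values were higher. CTBP2 was called in both untreated libraries, at 6.63 and 4.49, and in neither dox library, while both EVI1 dox values (6.62 and 5.72) lay above both untreated values (4.73 and 4.36), a log2 difference of 0.44. This difference between the targets was not tested, and the values are among the weaker ones of the locus. Over the genome, 41.0% of CTBP2 sites called in both untreated libraries had no peak in either dox library. Of EVI1 sites called in all 4 libraries, 13.4% lay above with dox. The CTBP2 dox lists were shorter, and a missing peak does not show that CTBP2 was absent.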

How the results depend on the processing

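Of the alternatives to the 2 paralogue comparisons, those for the strongest peak all kept their direction and passed the exact permutation test, and those for peak density did so except flanks of 25 kb (1.96 peaks per 100 kb, exact permutation p = 0.15). Numbers of peaks with and without dox could not pass in any setting. For CTBP2 at GFI1 the difference turned from −1.5 to 2 in lists of equal size, and libraries left out in turn gave −5 to 2; they gave −0.5 to 1.5 for EVI1 at GFI1 and −8.50 to 0.50 for EVI1 at GFI1B. The kept CTBP2 share at GFI1 (100.0%) became 66.7% with an overlap of 50% and 25% for sites of either untreated library (35.0 to 100.0% with libraries left out), and at GFI1B (54.2%) 42.9% at a fold enrichment of at least 5, 65.0% with flanks of 25 kb, 30.0% for either untreated library and 90.0% in lists of equal size (29.2 to 58.3% with libraries left out). The kept EVI1 share at GFI1B (84.6%) became 91.7% at a −log10 q of at least 5, 90.0% at a fold enrichment of at least 5, 88.9% with flanks of 25 kb, 85.7% with an overlap of 50%, 87.5% with summits within 200 bp and 52.1% for either untreated library (52.1 to 84.6% with libraries left out). EVI1 sites with CTBP2 at GFI1 (50.0%) became 100.0% at either stricter threshold, where 2 sites remained, and 0% with summits within 200 bp, and at GFI1B (76.9%) 38.5% in lists of equal size. The number of named sites lower with dox became 2 for CTBP2 with centring, and 2 for EVI1 by −log10 p (7 to 10 with libraries left out). With centring, the log2 difference turned to 0.16 at GFI1 +26.9 kb, 0.43 at the GFI1 5′ site, 0.27 at GFI1B +3.7 kb and 0.85 at +30.3 kb for CTBP2, and to 0.21 at +0.1 kb and 0.021 at +16.0 kb for EVI1. With libraries left out it ranged from −0.30 to 0.20 for CTBP2 at +30.3 kb, and for EVI1 from −0.99 to 0.076 at the GFI1 5′ site, −0.40 to 0.34 at +0.1 kb (0.15 without dox replicate 2), −0.48 to 0.053 at +16.0 kb and −0.72 to 0.24 at +52.2 kb (0.059 without untreated replicate 2), and for CTBP2 at +30.3 kb it was 0.067 without dox replicate 1. The cause of these changes was not tested, except that equal size and stricter thresholds leave fewer sites.

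The replicate block, which pairs libraries by number, left every difference as it was, with p = 0.50 or more for 2 pairs by the exact permutation test; 7 CTBP2 and 9 EVI1 sites then lay lower with dox in both pairs. The differences between replicates correlated over sites at 0.21 for CTBP2 and −0.23 for EVI1, so the numbers were not taken as pairs. With crossed EVI1 numbers, tried after the data were seen, 7 sites lay lower. The unknown depth limits all counts of peaks: a site without a peak was not detected at that library's depth, which does not show that the protein was absent.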
